A study of Arabidopsis thaliana with 6 samples.

Results

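The plant mobile domain is a protein domain of plants that is shared by some transposable elements and by a family of host genes, whose proteins are often annotated as aminotransferase-like. The best known members in Arabidopsis are MAINTENANCE OF MERISTEMS (MAIN) and its relatives MAIN-LIKE 1 to 3 (MAIL1, MAIL2 and MAIL3). MAIN and MAIL1 act in the nucleus, are needed for the upkeep of the root and shoot meristems and, together with a relative of protein phosphatase 7, keep transposable elements silent. For most other loci of the family, including those described here, no function is given in the sources used here.

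The 10 loci considered were AT1G67150 and its relatives AT1G50750, AT1G50760, AT1G50770, AT1G50790, AT1G50820, AT1G50830, AT1G51538, AT1G32120 and AT2G04865. AT1G67150 was chosen by its measured change between the sulfur sources, among the largest upward differences of these arrays, and the others were chosen as loci of the same domain family. AT1G67150's change is therefore given as a description without a p-value of its own. A locus counted as measured where a row of the expression table was assigned to it alone. Of the 10 loci, 9 were measured, each by 1 row, among 16548 genes tested. AT2G04865, which is MAIL2, had no such row and was not analysed here. No row of the 9 shared all its values with another row of the table.

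Roots came from Arabidopsis thaliana Col-0 wild-type plants 8 weeks old, raised in hydroponics under short days in a medium with its sulfate exchanged for chloride. Of the 6 one-colour Affymetrix arrays, 3 carried RNA from plants supplied with 150 µM sodium thiosulfate, a more reduced sulfur source. The other 3 carried RNA from plants supplied with 300 µM sodium sulfate. The groups thus differed in salt concentration as well as in sulfur form, and effects of these cannot be told apart here. The sample titles call the replicates biological. Nothing in the labels says whether replicates of a group grew in separate vessels or how many plants were pooled. The spread behind each p-value is that between these arrays, and how far it covers separate cultures is not known. The question is what thiosulfate does to root transcripts as a replacement for sulfate. Values are listed log2 expression values. Each is a summary of the probes assigned to that gene. A higher listed value for one gene than for another therefore need not mean a larger amount of transcript. Whether these probes also bind transcripts of related loci was not tested. In RNA from whole roots, fewer cells of a type and less RNA per cell cannot be told apart.

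Over all rows the array medians lay between 2.41 and 2.48 with thiosulfate and between 2.35 and 2.38 with sulfate. Over the genes tested alone the medians overlapped, at 2.36, 2.38 and 2.39 with thiosulfate and 2.36, 2.39 and 2.34 with sulfate. The root marker PYK10, a beta-glucosidase gene of the root, was bright on every array, with 10.3, 9.10 and 9.77 in thiosulfate roots and 9.40, 8.50 and 8.97 in sulfate roots. Its log2 difference was 0.76 (95% interval 0.056 to 1.46, limma adjusted p = 0.46), and the groups overlapped. Of the marker lists, 2 of 6 root genes, 2 of 4 root hair genes, 2 of 5 green tissue genes and 2 of 4 genes of dividing cells were measured, and none passed the test described below. The summed log2 value of the 2 root markers, PYK10 and AT5G48940, lay between 14.2 and 15.6 in thiosulfate roots and between 13.5 and 14.3 in sulfate roots. The ranges of the other sums also overlapped. They were 5.06 to 6.42 in thiosulfate roots against 4.38 to 5.79 in sulfate roots for root hairs, and 5.43 to 6.11 against 5.46 to 5.60 for dividing cells. Green tissue genes summed to 5.93 to 7.46 in thiosulfate roots, against 6.78 to 7.15 in sulfate roots.

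AT1G67150 stood higher in thiosulfate roots. It was listed at 4.79, 4.40 and 4.25 on the thiosulfate arrays, against 3.30, 3.09 and 3.06 on the sulfate arrays. Every thiosulfate array lay above every sulfate array, and the gap between the nearest arrays of the groups was wider than the range within either. The means were 4.48 ± 0.28 in thiosulfate roots and 3.15 ± 0.13 in sulfate roots (log2, SD, n = 3 each), a difference of 1.33 with a standard error of 0.18, or 2.51-fold. This is the value by which the gene was chosen. With any 1 array left out the difference stayed between 1.17 and 1.44.

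**Figure D1:**
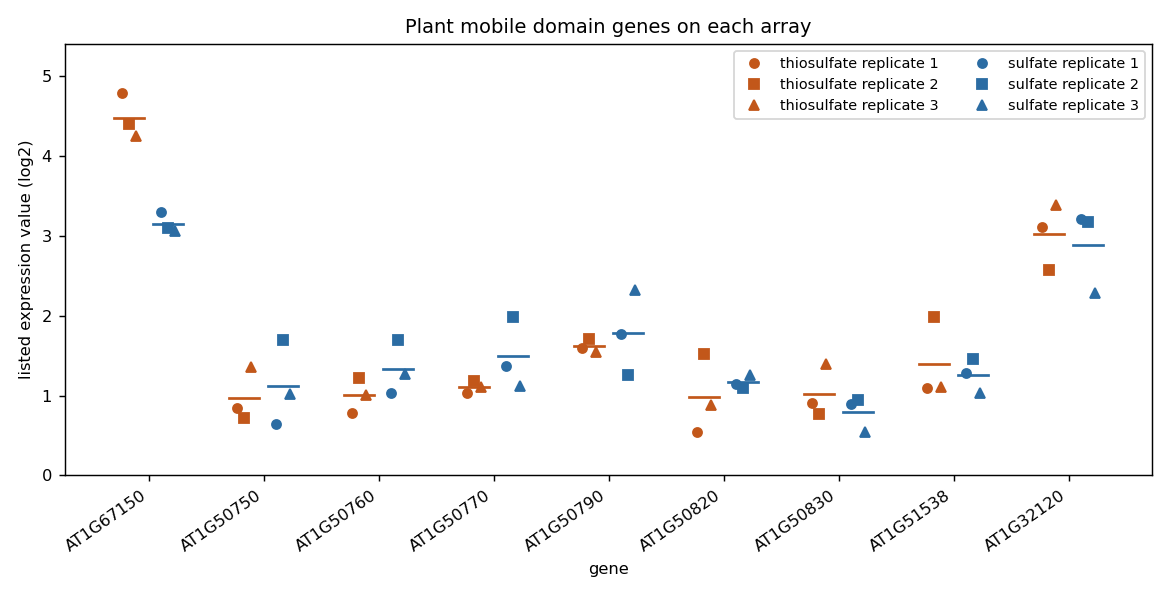
Listed log2 expression value (vertical axis) of the 9 measured plant mobile domain genes (horizontal axis) on each array, thiosulfate in orange left of sulfate in blue, with symbols for replicates and a line at each group's mean. AT1G67150 lies between 4.25 and 4.79 with thiosulfate and between 3.06 and 3.30 with sulfate, while the groups overlap in the other 8 genes.

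None of the 9 genes passed a limma adjusted p of 0.05 over all genes tested, as 0.0121% of all genes did. At an unadjusted limma p under 0.05 there were 0 of the 8 relatives of AT1G67150, against 10.03% of all genes. A difference of at least 2-fold was likewise seen in 1 of the 9, AT1G67150, and in 0.586% of all genes. It was also the 1 gene whose groups did not overlap. Thiosulfate arrays lay above sulfate arrays without overlap in 7.11% of all genes and below them in 7.57%. Since AT1G67150 was chosen by this contrast, its place in these counts carries no information about the family.

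The other 8 genes had smaller differences of both signs. Of them 3 had a higher mean and 5 a lower mean in thiosulfate roots, and their log2 differences ran from -0.39 to 0.23. Their median was -0.16, against -0.016 over all genes tested. The limma adjusted p-values over all genes lay between 0.59 and 0.91. For each of the 8 the 95% interval of the listed difference excluded 2-fold in either direction, as it did for 92.7% of all genes. For dim genes such an interval speaks of listed values and does not limit the change in transcript.

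**Figure D2:**
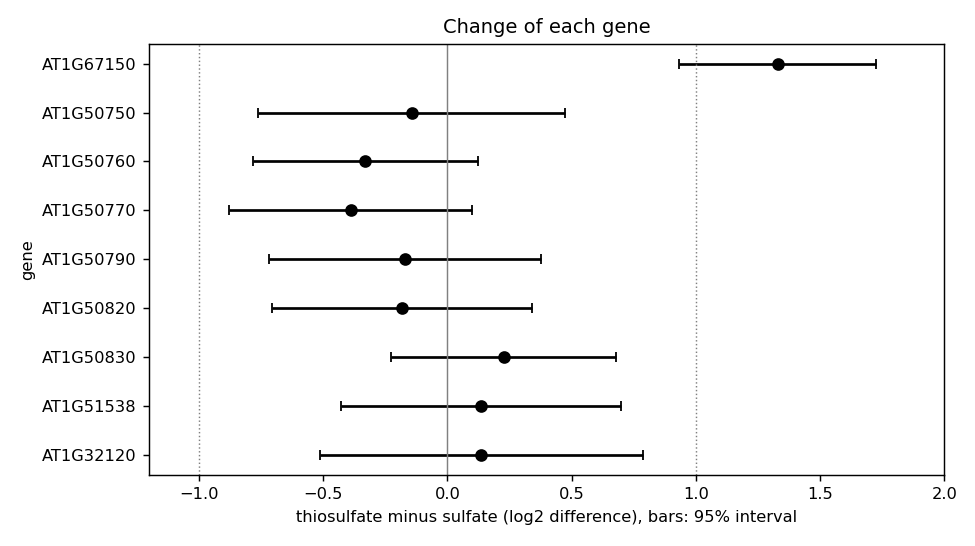
Log2 difference between thiosulfate and sulfate roots for each gene (horizontal axis; positive is higher in thiosulfate), with bars for limma's 95% interval and dotted lines at 2-fold. The intervals of the 8 relatives include 0 and stay within 2-fold, and the point for AT1G67150 lies at 1.33.

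Of the measured genes 6 lie close together on chromosome 1. In the RefSeq gene order of assembly TAIR10.1, 9 annotated genes run from AT1G50750 to AT1G50830, and those 6 loci are among them. The remaining 3 are AT1G07683, listed as a long non-coding RNA, AT1G50780, and AT1G50810, listed as a pseudogene. All 6 were dim. When the genes tested were divided into 5 bins of nearly equal size by mean listed value, 4 of the 6 fell in the dimmest bin, whose median was 0.987, and the other two in the next. Single values of the 6 ran from 0.54 to 2.32. No detection call was used, so whether these genes were expressed above background was not tested.

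The first 3 loci of the stretch shared their highest array, which was seen once the values were known. The share of all genes that were highest on that array was not counted. AT1G50750 was listed at 0.84, 0.72 and 1.35 in thiosulfate roots and at 0.64, 1.69 and 1.02 in sulfate roots. AT1G50760 was listed at 0.78, 1.21 and 1.01 in thiosulfate roots and at 1.04, 1.69 and 1.27 in sulfate roots. AT1G50770 was listed at 1.03, 1.18 and 1.105 in thiosulfate roots and at 1.38, 1.98 and 1.12 in sulfate roots. Sulfate replicate 2 was the highest of the 6 arrays for all 3, and the groups overlapped in each. Their log2 differences were -0.14, with a 95% interval of -0.76 to 0.47, for AT1G50750, -0.33 (-0.78 to 0.12) for AT1G50760 and -0.39 (-0.88 to 0.10) for AT1G50770. By limma over all genes the adjusted p-values were 0.89, 0.63 and 0.59 in the same order. Without sulfate replicate 2 the differences were 0.14 for AT1G50750, -0.15 for AT1G50760 and -0.14 for AT1G50770, so the size of these differences, and the sign of the first, depended on that array. The median difference of all 9 genes moved with it, to 0.14 without that array, against -0.14 with all arrays. It was also above 0, at 0.035, without thiosulfate replicate 1.

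Sulfate replicate 2 was not the highest array for the remaining loci of the stretch. AT1G50790 stood at 1.59, 1.70 and 1.55 in thiosulfate roots and at 1.78, 1.26 and 2.32 in sulfate roots. Here sulfate replicate 2 was the lowest array and sulfate replicate 3 the highest. The log2 difference was -0.17 (95% interval -0.72 to 0.38, limma adjusted p = 0.86), and 0.097 without sulfate replicate 3. AT1G50820 was listed at 0.55, 1.52 and 0.88 in thiosulfate roots and at 1.14, 1.095 and 1.26 in sulfate roots. Its thiosulfate arrays lay on both sides of all the sulfate arrays. Its log2 difference was -0.18 (95% interval -0.70 to 0.34, limma adjusted p = 0.84), and 0.035 without thiosulfate replicate 1. AT1G50830 was listed at 0.91, 0.76 and 1.39 in thiosulfate roots and at 0.89, 0.95 and 0.54 in sulfate roots. It was the 1 locus of the stretch with a higher mean in thiosulfate, by 0.23 (95% interval -0.23 to 0.68, adjusted p = 0.75 by limma), and the groups overlapped. That difference shrank to 0.040 without thiosulfate replicate 3 and to 0.10 without sulfate replicate 3.

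AT1G51538 lies on the same chromosome 95 annotated genes after AT1G50750 in that order and fell in the second dimmest bin. It was listed at 1.098, 1.98 and 1.104 in thiosulfate roots and at 1.29, 1.46 and 1.03 in sulfate roots. Thiosulfate replicate 2 stood alone above all other arrays. The log2 difference was 0.13 (95% interval -0.43 to 0.70, limma adjusted p = 0.89), and -0.16 without that array. AT1G32120, which fell in the third of the brightness bins, had values of 3.11, 2.57 and 3.39 in thiosulfate roots and 3.21, 3.17 and 2.28 in sulfate roots. The groups overlapped, with the lowest value on sulfate replicate 3. The log2 difference was 0.14 (95% interval -0.51 to 0.79, limma adjusted p = 0.91). It turned to -0.17 without sulfate replicate 3 and to -0.046 without thiosulfate replicate 3.

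A property that the choice of the 8 relatives did not use is the spread between replicates. The replicate SD, pooled over both groups, was 0.28 to 0.47 on the log2 scale in the 8 relatives. The median of their brightness bins was 0.19 to 0.26. All 8 lay above the median of their own bin, between the 78.6th and 98.4th percentile of the genes in it. AT1G50750 had the highest percentile of the 8 and AT1G50770 the lowest. Among further genes entered as plant mobile domain genes and described below, AT4G16050 lay at the 51.6th percentile of its bin and AT5G18510 at the 99.1st. AT1G67150, with an SD of 0.22, lay at the 45.1st percentile of its bin. That gene was chosen by its change between the groups, so its spread may not be free of the choice. This is a description with no test, and the 8 genes share the same 6 arrays.

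**Figure D3:**
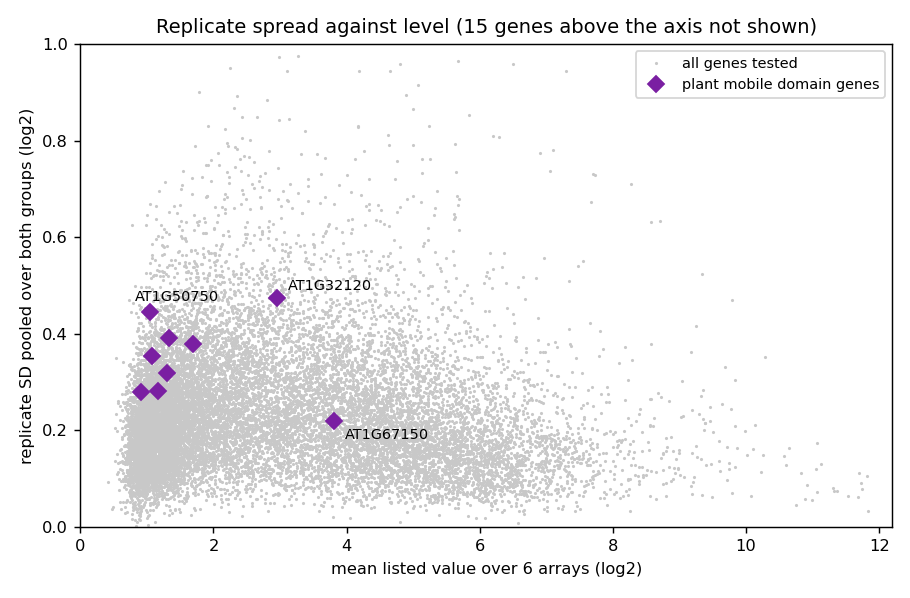
Replicate SD pooled over both groups (vertical axis, log2) against mean listed value over the 6 arrays (horizontal axis, log2), with 1 grey point per gene tested and purple diamonds for the 9 plant mobile domain genes; 15 genes lie above the axis. The 8 relatives lie between 0.28 and 0.47 and AT1G67150 at 0.22.

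Between AT1G50700 and AT1G50870 another 6 genes were measured, none of which passed the correction (limma, smallest adjusted p 0.40), with log2 differences from -0.48 to 0.20. AT1G50780, which sits among the plant mobile domain loci, was listed at 0.78, 0.62 and 0.77 in thiosulfate roots and at 0.97, 1.15 and 1.49 in sulfate roots. All its thiosulfate arrays lay below its sulfate arrays, by 0.48 between the means (log2; 95% interval -0.86 to -0.096; adjusted p = 0.40 by limma). The next largest differences were 0.20 in AT1G50730 (limma adjusted p = 0.75) and -0.076 in AT1G50720 (limma adjusted p = 0.92). Some neighbours elsewhere were measured too, and were looked at after the values were known. AT1G51530, directly beside AT1G51538, was listed at 1.41, 1.46 and 1.49 in thiosulfate roots and at 2.07, 1.74 and 1.73 in sulfate roots. Its groups did not overlap either, with a log2 difference of -0.39 (95% interval -0.73 to -0.050, adjusted p = 0.43 by limma). Groups did not overlap, in either direction, in 13.4% of the genes in its brightness bin and in 9.52% in that of AT1G50780. On the other side of AT1G51538 the nearest measured gene, AT1G51560, differed by -0.0014 with overlap (limma adjusted p = 0.998). The measured genes nearest AT1G32120 overlapped too, AT1G32090 at 0.30 and AT1G32140 at 0.060 (limma adjusted p = 0.81 and 0.94). The annotated genes on either side of AT1G67150 were both measured. AT1G67148 was listed at 6.73, 7.22 and 6.98 in thiosulfate roots and at 6.69, 6.65 and 6.87 in sulfate roots, a log2 difference of 0.24 (95% interval -0.14 to 0.61) with overlapping groups. AT1G67160 was listed at 5.25, 5.93 and 5.20 in thiosulfate roots and at 5.72, 4.78 and 6.09 in sulfate roots, a log2 difference of -0.067 (95% interval -0.81 to 0.67), again with overlap. Their limma adjusted p-values were 0.68 for AT1G67148 and 0.96 for AT1G67160.

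Of 7 further genes listed as relatives of the family or of protein phosphatase 7, 3 were measured, and none passed over all genes. MAIN, MAIL1 and MAIL3 were not among them. AT5G10900, entered as a relative of protein phosphatase 7, was listed at 2.89, 3.13 and 2.84 in thiosulfate roots and at 3.30, 2.90 and 3.36 in sulfate roots. Its log2 difference was -0.23 (95% interval -0.62 to 0.16, limma adjusted p = 0.69). The entries AT4G16050 and AT5G18510 both fell in the dimmest bin, with means of 1.21 ± 0.19 and 1.09 ± 0.57 in thiosulfate roots and 1.07 ± 0.19 and 1.23 ± 0.39 in sulfate roots (SD, n = 3 each). Their log2 differences were 0.15 for AT4G16050 (limma adjusted p = 0.82) and -0.14 for AT5G18510 (limma adjusted p = 0.91). The groups overlapped in all 3 genes. Of 28 genes of transposon silencing, the process in which MAIN and MAIL1 act, 0 had a row assigned to them alone and so counted as measured. No gene was listed for 20927 of the 38408 rows, and whether the array carries probes for the 28 was not examined.

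The 5 genes whose pattern was most like that of AT1G67150 were not among the loci considered. Likeness uses the values by which AT1G67150 was chosen, so relatives with small differences could not rank near it. Their absence carries no information about the family. Likeness was taken as the root mean square difference between log2 values, each gene centred on its own mean over the 6 arrays, where the median of all genes was 0.72. The nearest was AT1G33840 at 0.12, listed at 5.63, 5.05 and 4.98 in thiosulfate roots and at 4.18, 3.77 and 3.57 in sulfate roots. In it, as in AT1G67150, replicate 1 was the highest array of each group and replicate 3 the lowest. Such a match within groups is also what the measure selects for. Next came AT1G61667 at 0.21, listed at 5.64, 4.94 and 5.34 in thiosulfate roots and at 4.02, 4.15 and 4.13 in sulfate roots. NCRK (AT2G28250) at 0.21, AT1G07560 at 0.22 and AT3G49330 at 0.22 followed. All 5 had higher means in thiosulfate, by 0.92 to 1.38, which the measure favours since AT1G67150 itself differs mainly between the groups. Among the relatives the nearest by this measure was AT1G50830, at 0.64, and the farthest AT1G50770, at 0.92.

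**Figure D4:**
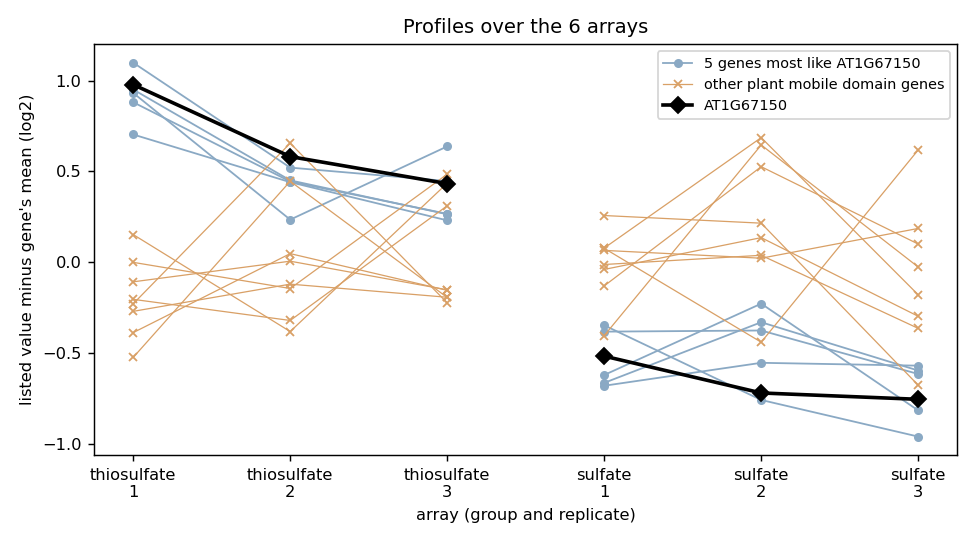
Listed log2 value minus the gene's own mean over the 6 arrays (vertical axis) on each array (horizontal axis), for AT1G67150 in black, the 5 genes most like it in blue and the 8 relatives in orange; lines only join the values of 1 gene within a group. The black and blue genes lie above 0 on every thiosulfate array and below 0 on every sulfate array, while the relatives scatter around 0.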

How the data were processed

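The authors deposited log2 values that, per the submitters' processing notes, come from RMA in Transcriptome Analysis Console 4.0, which corrects background, quantile-normalizes the arrays and summarises probes. Background, detection and batches were not examined, and no coordinates are printed: the sources used here name neither the array's genome build nor scan dates, and the RefSeq table served only for names and gene order.

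Rows were named through the platform's probe annotation, with symbols updated through a RefSeq gene table. Of 38408 rows, 16722 had 1 gene, 759 had several and 20927 were not listed. Only rows with 1 gene were used, and the highest-mean row of each gene was kept. Replicates were grouped by sample title. Thiosulfate minus sulfate was tested across all 16548 genes with limma 3.58.1 in R 4.3.3 (lmFit, eBayes without trend, two-sided, Benjamini-Hochberg adjustment, threshold 0.05), after a check on simulated data. The number of arrays limits the precision. Python 3.11.15, pandas 2.3.3 and matplotlib 3.10.9 made the tables and plots.

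The members, lists and tests were chosen with earlier results of these data known. Named are every measured member, the 3 smallest p of each related list, the 3 largest changes between AT1G50700 and AT1G50870, and the 5 genes most like AT1G67150. The measured genes nearest AT1G67150, AT1G51538 and AT1G32120 and the root marker named were added after their values were seen. Alternatives tried were median centring, another quantile normalization, array weights, an intensity trend with robust prior, no shared variance, averaged rows, every row tested, dim genes filtered out, each array left out, a replicate block and other thresholds.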

Additional observations from a re-analysis of the deposited data

How the results depend on the processing

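Of the 9 genes, 0 passed a limma adjusted p of 0.05 in any alternative fit. Of the 8 relatives, 0 had an unadjusted p under 0.05 with all arrays, and 1 did in each of a pair of fits with 1 array left out. These were AT1G50770 without sulfate replicate 3 (log2 difference -0.58, adjusted p = 0.58 by limma) and AT1G50820 without thiosulfate replicate 2 (-0.45, adjusted p = 0.43). The difference of AT1G67150 lay between 1.22 and 1.33 in the fits with all arrays and between 1.17 and 1.44 with 1 array left out. With all arrays no relative changed sign in the alternatives it entered. The filters left out dim members: with the 8274 brighter genes alone AT1G67150 and AT1G32120 remained, so no median was taken there. With 1 array left out the median of the 9 ran from -0.17 to 0.14, AT1G50750 from -0.38 to 0.14, AT1G50790 from -0.43 to 0.097, AT1G50820 from -0.45 to 0.035, AT1G50830 from 0.040 to 0.36, AT1G51538 from -0.16 to 0.28 and AT1G32120 from -0.17 to 0.36. The arrays at which signs turned stand beside each gene above. Beyond these arrays the cause was not tested.

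Of all genes, 2 passed with all arrays. Among the 8274 brighter genes alone, 1 passed (1026 at an unadjusted p under 0.05). When every row was tested 0 passed (3502 unadjusted), and without shared variance 0 (1297). Leaving out each array gave 0 to 2. At an unadjusted p under 0.05 there were 1660, and at an adjusted p under 0.1 there were 3. With the replicate number as a block, 0 of all genes passed by limma (1717 unadjusted). The deviations of same-numbered arrays correlated at 0.056, -0.025 and -0.032, so the numbers were not taken to pair the arrays. The block changed no call among the 9 genes.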
